A study of Mus musculus with 17 samples.

Results

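The 10 genes described here encode enzymes and 1 helper protein of prostaglandin and leukotriene synthesis: Ptgs1, Ptgs2, Ptges, Ptgis, Ptgds, Tbxas1, Alox5, Alox5ap, Lta4h and Ltc4s. They were chosen by name, and all 10 have a row among the 31647 features of the count table. Transcripts were counted in hearts of male wild-type C57BL/6 J mice aged 8 to 11 weeks at surgery. In 9 mice the left anterior descending coronary artery (LAD) had been tied off permanently, with no reperfusion, and the infarct zone (IZ) was taken on day 5, 5d post-MI (myocardial infarction). The controls were left ventricles of 8 mice that underwent sham surgery without ligation, also taken on day 5. Each library came from its own mouse, and the 9 ligated mice sequenced were a random choice among 12.

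Prostanoids and leukotrienes are signalling lipids made from arachidonic acid, which phospholipases cut from membranes. Cyclooxygenases convert it into PGH2, from which separate synthases make prostaglandin E2, prostaglandin D2, prostacyclin or thromboxane A2. The lipoxygenase branch begins with 5-lipoxygenase and its helper FLAP, which yield LTA4, and LTA4 is then turned into either LTB4 or LTC4. In injured tissue these lipids are known for their effects on vessel tone, platelets and the recruitment of leukocytes.

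The promoter sequences of 4 genes are shown because they belong to genes of the first step of each branch and of a later one, and because their windows hold no annotated exon. Each covers 250 bases directly before the gene's start in RefSeq (GRCm38.p6), written 5′ to 3′ along the gene's strand. For Ptges this start lies inside the span of the gene in GENCODE (chr2:30889471-30929863), so its window is not upstream of that whole span. The windows are chr2:36230176-36230425 (plus strand) for Ptgs1, chr2:30903298-30903547 (minus strand) for Ptges, chr6:116461179-116461428 (minus strand) for Alox5 and chr10:93453146-93453395 (plus strand) for Lta4h. Capitals mark every match to 1 of the 5 motifs searched on both strands.
Ptgs1: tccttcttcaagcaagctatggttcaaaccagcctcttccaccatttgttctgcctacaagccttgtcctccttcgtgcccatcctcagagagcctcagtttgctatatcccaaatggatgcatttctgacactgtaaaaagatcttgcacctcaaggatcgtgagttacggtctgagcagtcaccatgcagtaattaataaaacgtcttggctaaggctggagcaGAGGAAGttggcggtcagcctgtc
Ptges: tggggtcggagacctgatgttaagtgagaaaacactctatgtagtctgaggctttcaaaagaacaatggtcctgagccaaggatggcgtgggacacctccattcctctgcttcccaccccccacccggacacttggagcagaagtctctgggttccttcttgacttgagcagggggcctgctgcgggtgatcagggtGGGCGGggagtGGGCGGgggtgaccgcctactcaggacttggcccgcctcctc
Alox5: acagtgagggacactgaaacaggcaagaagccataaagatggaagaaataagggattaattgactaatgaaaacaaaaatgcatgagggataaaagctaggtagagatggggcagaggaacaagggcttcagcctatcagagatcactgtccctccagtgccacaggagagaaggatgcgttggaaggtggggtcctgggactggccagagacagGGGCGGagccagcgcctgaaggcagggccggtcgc
Lta4h: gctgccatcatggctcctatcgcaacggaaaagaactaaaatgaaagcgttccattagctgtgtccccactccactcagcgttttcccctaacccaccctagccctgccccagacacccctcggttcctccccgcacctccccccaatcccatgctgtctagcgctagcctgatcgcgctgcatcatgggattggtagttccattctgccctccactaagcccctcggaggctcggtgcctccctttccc
The motifs were the GC box GGGCGG, the PU.1-type ETS site GAGGAAG, the NF-kB site, the cAMP response element TGACGTCA and the TATA box TATAAA. The Ptgs1 window held 1 PU.1-type match at 24 to 18 bases before the start. Alox5 held 1 GC box at 35 to 30 bases, and Ptges held GC boxes at 42 to 37 and 53 to 48 bases. Lta4h held none of the 5 motifs. RefSeq windows were found for 8 of the 10 genes, and among the others with a window Tbxas1 held a PU.1-type match on the opposite strand at 20 to 14 bases before the start and TATA matches at 11 to 6 and, on the opposite strand, 13 to 8 bases. Those TATA matches overlap each other. The windows of Tbxas1 and Ptgds also lie inside the GENCODE spans of these genes, and that of Ltc4s lies partly inside. Ptgs2 held a GC box at 170 to 165 bases, and Ptgds and Ltc4s held none of the 5. Among 32851 RefSeq windows of the same length, 32.7% held a GC box, 10.6% a PU.1-type match, 12.4% a TATA match, 1.41% an NF-kB match and 1.55% a cAMP response element. These matches are descriptions of letters in a window.

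Total counts per library ran from 1237675 to 4738307. Levels are given as CPM, the counts scaled to a fixed total on library sizes adjusted with edgeR's TMM factors. One count comes from the 3′ end of 1 transcript, so levels were compared between genes without division by length. A count of 3 corresponded on average to 1.78 CPM in sham and 1.05 CPM in the IZ. IZ replicate 1 stood apart from the other IZ samples. The summed level of 6 cardiomyocyte markers was 41699 to 58745 CPM in sham, 17867 CPM in IZ replicate 1 and 1460 to 3639 CPM in the other 8. That of 6 macrophage markers was 133 to 184 CPM in sham, 604 CPM in IZ replicate 1 and 977 to 1251 CPM in the others. Mitochondrial transcripts took 22.9 to 32.4% of the counts in sham, 19.5% in IZ replicate 1 and 4.22 to 6.78% in the others. Results that this library moves are therefore given with and without it.

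Within the pathway, the genes for the thromboxane synthase, the prostacyclin synthase and FLAP stood higher in the IZ, by 4.42-fold to 10.6-fold, and the gene for the lipocalin-type prostaglandin D synthase stood 9-fold lower. The leukotriene A4 hydrolase and the constitutive cyclooxygenase rose by less. Of the 10 genes, 7 had enough counts to be tested, and of these 5 rose, 1 fell and Ltc4s did not pass the test. Tbxas1, 1 of the 5, had 3 to 13 counts per sham library and 23 to 269 per IZ library. It passed the filter on low counts mainly in the IZ, so a rise was more likely from the start for this gene. In the same test 69.5% of the 12301 genes passed, 36.3% as higher and 33.1% as lower, so a call by itself is common in these data. Of the calls over all genes 52.3% were higher, and 85.8% were with total counts in place of TMM. The median log2 fold change was 0.88 over the 7 genes tested, which is the value of Lta4h, and 0.05 over all genes. It depends on which genes passed the filter. Ptgs2, Ptges and Alox5, which did not, stood at 1.89, 0.6 and -1.68 in a fit without it. For Ptgis, Tbxas1, Alox5ap and Lta4h, each IZ library exceeded the highest sham library, which was the case for 16.4% of all genes tested. Without IZ replicate 1 the counts were again 5 higher and 1 lower. Since whole tissue was measured, a change in the number of cells of a type and a change in the RNA per cell cannot be told apart.

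**Figure D1:**
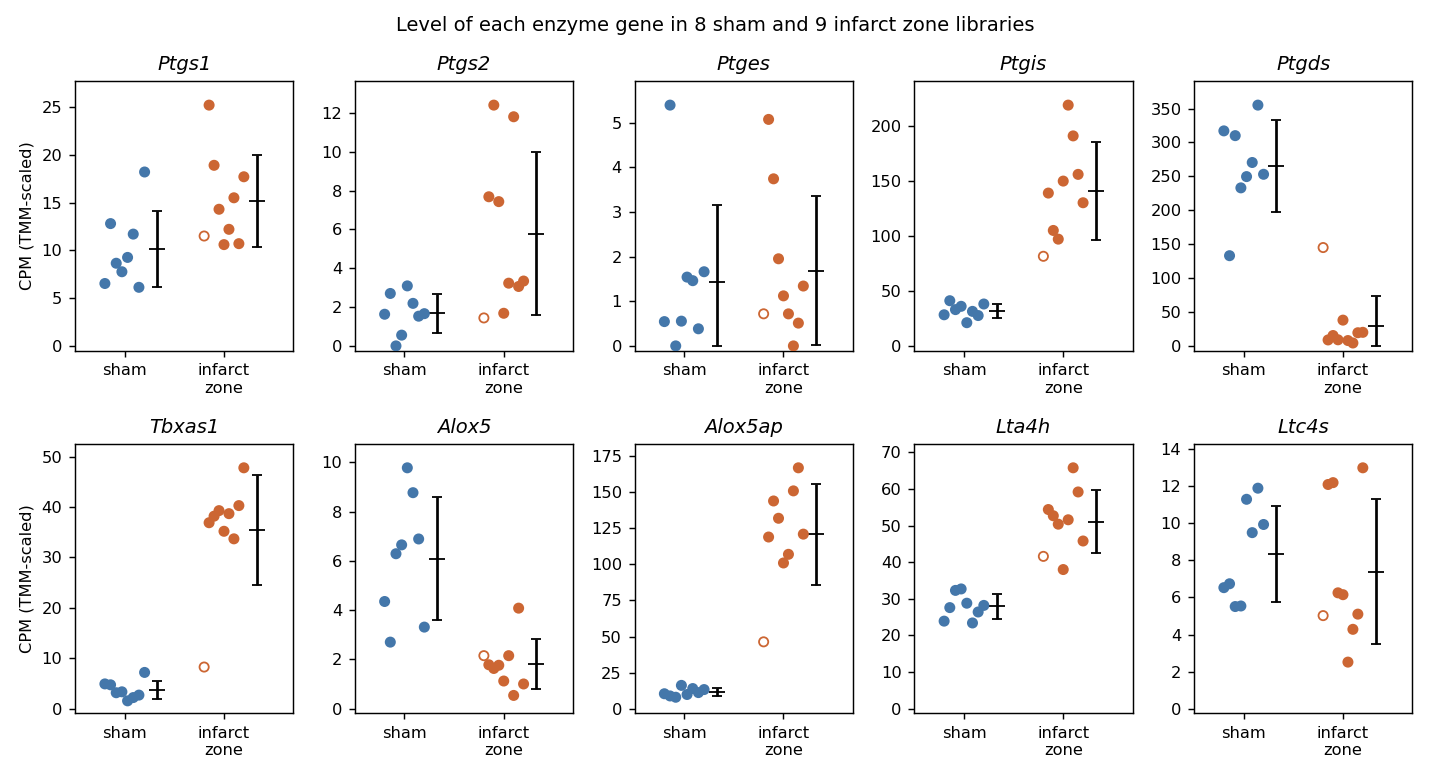
Level in CPM (vertical axis, linear, a separate scale for each gene) of the 10 genes in 8 sham libraries (blue) and 9 IZ libraries (orange). Each point is 1 mouse, the open point is IZ replicate 1, and the bars show the mean and SD, with the lower end stopped at 0. The groups are separate for Ptgis, Tbxas1, Alox5ap and Lta4h, and in the panel of Ptgds the open point at 145 CPM lies inside the sham range of 133 to 355 CPM.

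The cyclooxygenases catalyse the step that all prostanoids share. Ptgs1 (ENSMUSG00000047250, chr2:36230426-36252272, GRCm38, plus strand) encodes cyclooxygenase 1, the form that most tissues express constitutively. Its level in sham had a lowest value of 6.13, a median of 8.96 and a highest value of 18.2 CPM. In the IZ the lowest was 10.6, the median 14.3 and the highest 25.2 CPM. The groups overlapped, with 2 of 9 IZ libraries higher than the highest sham. The means were 10.1 ± 4.01 CPM (SD, n = 8) and 15.2 ± 4.81 CPM (SD, n = 9), a log2 fold change of 0.65 (SE 0.23, adjusted p = 0.0145, edgeR quasi-likelihood test). The counts behind these values were 11 to 33 per sham library and 19 to 184 per IZ library.

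Ptgs2 (ENSMUSG00000032487, chr1:150100031-150108227, plus strand) encodes cyclooxygenase 2, the form induced by cytokines and injury. It was counted 0 to 6 times per sham library and 3 to 76 times per IZ library, too few for the filter on low counts, so its values come from the fit without that filter. In that fit, which was chosen for Ptgs2, Ptges and Alox5 after the data were seen, 20.9% of 27668 genes passed as higher and 17.6% as lower. Levels in sham were 0 at the lowest, 1.64 at the median and 3.09 CPM at the highest, and levels in the IZ were 1.44, 3.34 and 12.4 CPM. In the IZ, 5 libraries had 1.44 to 3.34 CPM, within or close to the sham range, while replicates 2, 3, 4 and 7 had 7.68, 12.4, 7.43 and 11.8 CPM. The log2 fold change was 1.89 (SE 0.45, adjusted p = 0.000583, edgeR without filter). Replicates of 1 group thus differed more for Ptgs2, with a coefficient of variation of 72.7%, than for Ptgs1 at 31.7%, although the lower counts of Ptgs2 add counting error.

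Ptgs1 gave most cyclooxygenase counts in both groups. It made up 85.9 ± 8.36% of the summed counts of both genes in sham (SD, n = 8, at least 75% in each library) against 75.1 ± 11.5% in the IZ (SD, n = 9; range 56.9 to 88.9%). The difference of -10.7 percentage points had p = 0.0476 in a two-sided exact permutation test over 24310 splits and 0.0571 after adjustment over the 6 shares tested, so it did not pass. It passed with an adjusted p of 0.0295 in the same exact permutation test without IZ replicate 1, and also without sham replicate 5 (0.036) or IZ replicate 5 (0.0362) or 9 (0.0449). The summed counts of both genes were 11 to 240 per library, so single shares rest on few counts.

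Of the 10 genes, 4 encode synthases that use PGH2. Ptgds (ENSMUSG00000015090, chr2:25466709-25470046, minus strand) encodes the lipocalin-type prostaglandin D synthase, which makes prostaglandin D2 and is also secreted as a carrier of small lipophilic molecules. In sham it had the highest level of the 10 genes, with 133 CPM at the lowest, 262 at the median and 355 at the highest. In the IZ it had 4.28 CPM at the lowest, 15.3 at the median and 145 at the highest. Of 9 IZ libraries, 8 were lower than the lowest sham, between 4.28 and 38 CPM, and replicate 1 lay inside the sham range. The means were 265 ± 67.4 CPM (SD, n = 8) and 29.7 ± 44.4 CPM (SD, n = 9), with a log2 fold change of -3.17 (SE 0.5, adjusted p = 5.54e-06, edgeR). Without IZ replicate 1 the IZ mean was 15.3 ± 10.8 CPM and the log2 fold change -4.22 (adjusted p = 3.35e-14, edgeR). Among the IZ samples, cardiomyocyte markers were also highest in that library. So were the summed mural cell markers, at 399 CPM against at most 282 in the others, and endothelial markers, at 538 against at most 533 CPM. The part of any of these cell types in the level of Ptgds was not tested.

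Ptgis (ENSMUSG00000017969, chr2:167191805-167240604, minus strand) encodes the prostacyclin synthase, whose product relaxes vessels and inhibits platelets. Its levels were 21.1, 32.2 and 41.1 CPM at the lowest, median and highest in sham, and 81.5, 139 and 219 CPM in the IZ. The lowest IZ library, replicate 1, was above the highest sham library. The means of 32.1 ± 6.44 CPM (SD, n = 8) and 141 ± 44.4 CPM (SD, n = 9) gave a log2 fold change of 2.14 (SE 0.19, adjusted p = 7.45e-10, edgeR). The summed level of 6 fibroblast markers also rose, from 1038 to 1834 CPM across sham libraries to 5260 to 8716 CPM, with 5 of the 6 genes called higher. Most of that sum came from Col1a1, whose mean went from 350.0 to 5570 CPM, and the gene not called was Dcn, with means of 859 and 875 CPM. That of 6 endothelial markers was 443 to 877 CPM in sham and 330.3 to 538 CPM in the IZ, with 2 lower and 4 not called. That of 6 mural cell markers was 462 to 669 and 164 to 399 CPM, with 1 higher, 4 lower and 1 not called. The part of these cell types in the rise of Ptgis was not tested.

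Tbxas1 (ENSMUSG00000029925, chr6:38875404-39084585, plus strand) encodes thromboxane A synthase 1, whose product contracts vessels and activates platelets. Levels were 1.54, 3.24 and 7.18 CPM at the lowest, median and highest in sham, and 8.25, 38.2 and 47.8 CPM in the IZ. All 9 IZ libraries were higher than the highest sham, although replicate 1, at 8.25 CPM, was just above the highest sham library and the other 8 had 33.7 CPM or more. The means were 3.71 ± 1.81 CPM (SD, n = 8) and 35.4 ± 10.9 CPM (SD, n = 9), a log2 fold change of 3.26 (SE 0.3, adjusted p = 1.94e-09, edgeR). Counts were 3 to 13 per sham library and 23 to 269 per IZ library, so Tbxas1 passed the filter on low counts mainly in the IZ. Without replicate 1 the IZ mean was 38.8 ± 4.23 CPM. All 6 macrophage markers were called higher, and replicate 1, lowest for Tbxas1, was also the lowest IZ library in their summed level. Platelets express Tbxas1 too. The summed level of 6 platelet and megakaryocyte markers was 28.7 to 49.9 CPM in sham and 49.9 to 353 CPM in the IZ, most of it from Pf4. Both genes tested, Pf4 and Gp1bb, were called higher. Ppbp, Itga2b, Gp9 and Gp6 did not pass the filter. In the fit without it they were not called, at log2 fold changes of 0.53, 0.6, 0.89 and -1.57. The part of either cell type was not tested. Tbxas1 overlaps Hipk2 on the opposite strand, which had 798 counts over all 17 libraries, and the strand setting of the counting was not given in the sources used here.

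Ptges (ENSMUSG00000050737, chr2:30889471-30929863, minus strand) encodes the inducible membrane-bound prostaglandin E synthase, which acts with cyclooxygenase 2. It was scarce in both groups, with 0 to 8 counts per sham library and 0 to 37 per IZ library. Levels were 0, 1.01 and 5.39 CPM at the lowest, median and highest in sham and 0, 1.12 and 5.07 CPM in the IZ. The ranges overlapped almost completely. The log2 fold change of 0.6 (SE 0.58, adjusted p = 0.438, edgeR without filter) did not pass the test. Single libraries moved it, to 1.23 without sham replicate 2 and to 0.15 without IZ replicate 2, neither of which passed, and with total counts in place of TMM it passed at 1.60 (adjusted p = 0.0136, edgeR without filter).

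Taken within each library, the makeup of these 4 synthases turned over. Ptgds made up 86.7 ± 6.46% of their summed counts in sham (SD, n = 8) against 13.6 ± 18.5% in the IZ (SD, n = 9). Ptgis went from 11.4 ± 4.96% to 67.6 ± 14.2%, and Tbxas1 from 1.31 ± 0.775% to 17.9 ± 6.91%. For each of these 3 genes the two-sided exact permutation p was 8.23e-05, or 0.000165 after adjustment over 6 shares. Ptges took 0.623 ± 0.957% and 0.922 ± 0.972%, a difference that did not pass (exact permutation p = 0.54, also 0.54 after adjustment). The leading gene also changed, from Ptgds in all 8 sham libraries to Ptgis in 8 of the 9 IZ samples. The exception was IZ replicate 1, with 61.6% Ptgds, 34.6% Ptgis and 3.51% Tbxas1, where the other 8 had 1.87 to 17% Ptgds, 64.7 to 83.4% Ptgis and 14.5 to 26.7% Tbxas1. Without it the IZ means were 7.62 ± 4.84% Ptgds, 71.7 ± 7.54% Ptgis and 19.7 ± 4.63% Tbxas1. The summed counts behind a share were 273 to 1380 per library, and the 4 shares of a library are not independent of each other.

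**Figure D2:**
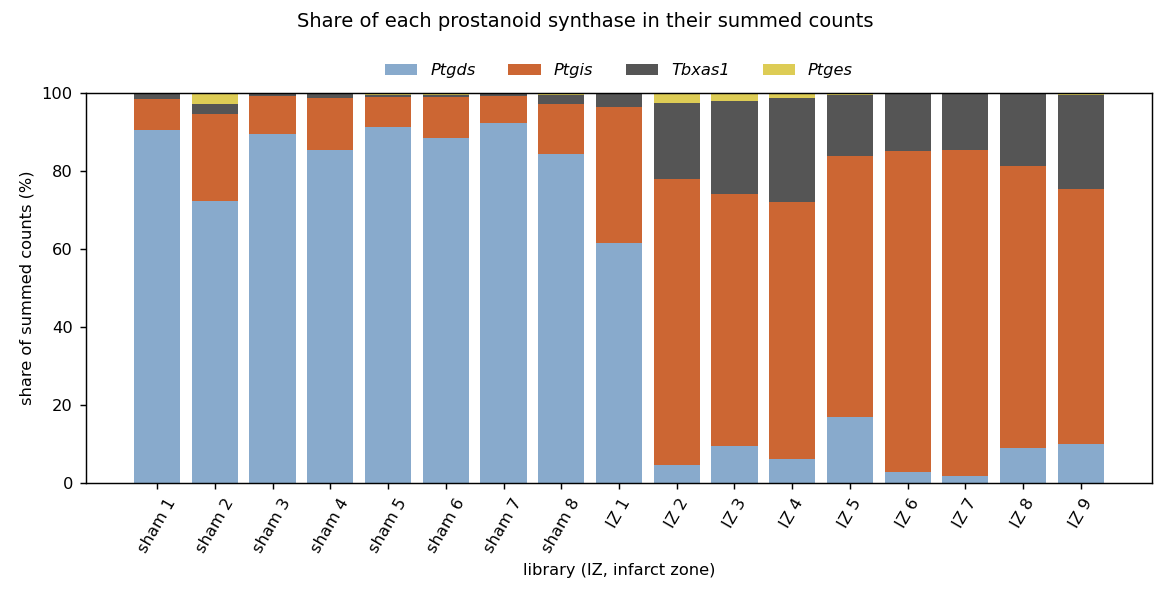
Share of Ptgds, Ptgis, Tbxas1 and Ptges in the summed counts of these 4 genes (vertical axis, percent from 0 to 100), with 1 bar per library for sham replicates 1 to 8 and IZ replicates 1 to 9. Ptgds fills 72.2 to 92.1% of every sham bar, and Ptgis fills 64.7 to 83.4% of every IZ bar other than IZ 1.

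The leukotriene branch starts with Alox5 and Alox5ap. Alox5 (ENSMUSG00000025701, chr6:116410077-116461178, minus strand) encodes 5-lipoxygenase. It was counted 4 to 19 times per sham library and 1 to 13 times per IZ library. Levels were 2.7, 6.47 and 9.78 CPM at the lowest, median and highest in sham and 0.535, 1.76 and 4.08 CPM in the IZ. Of 9 IZ libraries, 8 were lower than the lowest sham, and replicate 8, at 4.08 CPM, lay inside the sham range. The log2 fold change was -1.68 (SE 0.35, adjusted p = 0.000119, edgeR without filter). With total counts in place of TMM scaling it was -0.67 (adjusted p = 0.126), so it did not pass under that scaling. That scaling moved the log2 fold change of the median gene by 1.09, to 1.14, among the 12301 genes that passed the filter, which Alox5 did not.

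Alox5ap (ENSMUSG00000060063, chr5:149264767-149288153, plus strand) encodes FLAP, the membrane protein that presents arachidonic acid to 5-lipoxygenase. It moved the other way. Levels were 7.87, 10.7 and 16.1 CPM at the lowest, median and highest in sham, and 46.3, 121 and 167 CPM in the IZ. All 9 IZ libraries were above every sham library, with replicate 1 the lowest of them at 46.3 CPM and the others at 101 CPM or more. The means of 11.4 ± 2.8 CPM (SD, n = 8) and 121 ± 35.1 CPM (SD, n = 9) gave a log2 fold change of 3.41 (SE 0.21, adjusted p = 5.28e-12, edgeR), the highest of the 10 genes. All 6 macrophage markers given above were also called higher, as were 3 of the 6 neutrophil markers given below. The part of either cell type in the level of Alox5ap was not tested.

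As a description chosen after the values were seen, the number of Alox5ap counts per Alox5 count was 1 at the lowest, 1.99 at the median and 4 at the highest in sham. In the IZ it was 21.5, 75.1 and 282. The IZ ratios rest on 1 to 13 Alox5 counts per library, and that of 282, in replicate 7, on 1, so the upper ratios are imprecise. Pooled over the libraries of a group, the ratio was 1.86 in sham and 69.2 in the IZ. FLAP and 5-lipoxygenase transcripts were thus within 4-fold of each other in each sham library and at least 21.5-fold apart in each IZ library. Neutrophils are a known source of Alox5. The summed level of 6 neutrophil markers was 4.42 to 12.2 CPM in sham and 15.1 to 208 CPM in the IZ. S100a8, S100a9 and Csf3r were called higher. They had at most 15, 11 and 3 counts per sham library and passed the filter mainly in the IZ. Cxcr2, Retnlg and Ly6g, the last with at most 1 count in a library, did not pass it. In the fit without the filter these 3 were not called, at log2 fold changes of 1.7, 1.62 and 1.64. Mast cells express Alox5 and Ltc4s, and 6 mast cell markers summed to 0.787 to 6.18 CPM in sham and 0.358 to 5.9 CPM in the IZ. None of the 6 passed the filter, and Ms4a2 and Fcer1a had no counts in sham. Their part in the level of Alox5 was not tested.

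LTA4 has 2 fates. Lta4h (ENSMUSG00000015889, chr10:93453411-93484875, plus strand) encodes leukotriene A4 hydrolase, which makes LTB4, a chemoattractant for neutrophils. Levels were 23.4, 27.9 and 32.7 CPM at the lowest, median and highest in sham, and 38, 51.6 and 65.8 CPM in the IZ. The groups did not overlap. The means were 27.9 ± 3.41 CPM (SD, n = 8) and 51.1 ± 8.55 CPM (SD, n = 9), a log2 fold change of 0.88 (SE 0.12, adjusted p = 6.01e-07, edgeR). Its spread within groups was the lowest of the 10 genes, with coefficients of variation of 12.2% in sham and 16.7% in the IZ.

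Ltc4s (ENSMUSG00000020377, chr11:50236461-50238616, minus strand) encodes leukotriene C4 synthase, which joins LTA4 to glutathione and so begins the cysteinyl leukotrienes. Levels were 5.51, 8.12 and 11.9 CPM at the lowest, median and highest in sham, and 2.51, 6.15 and 13 CPM in the IZ. Infarct zone libraries lay on both sides of sham, with 3 above and 4 below every sham library. The log2 fold change was -0.12 (SE 0.29, adjusted p = 0.738, edgeR; 95% interval -0.69 to 0.46). This interval does not show that the levels were equal. With total counts in place of TMM, Ltc4s turned to 0.99 and passed (adjusted p = 0.0035, edgeR), while the median gene of that fit stood at 1.14. Its sign also turned, with no call, under upper quartile scaling (0.00) and without IZ replicate 6 (0.01). Within each library Ltc4s made up 23 ± 6.46% of the summed Ltc4s and Lta4h counts in sham (SD, n = 8) against 12.6 ± 6.08% in the IZ (SD, n = 9), a difference of -10.4 percentage points (two-sided exact permutation p = 0.00522, adjusted over 6 shares 0.00784). The ranges overlapped, from 14.5 to 31% in sham and from 4.64 to 22.2% in the IZ, and 45 to 485 counts stood behind each share.

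**Figure D3:**
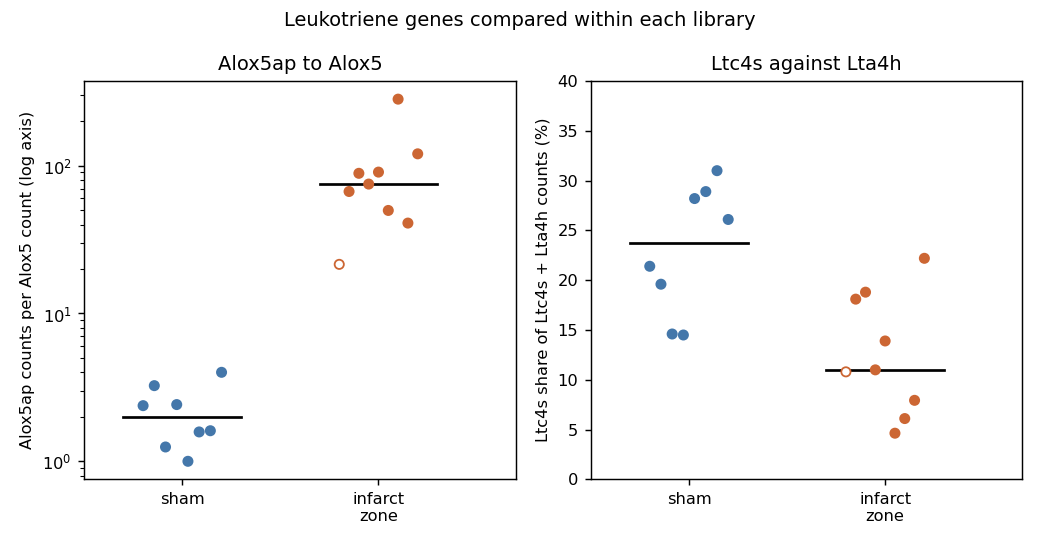
Left, Alox5ap counts per Alox5 count in each library (log axis). Right, share of Ltc4s in the summed counts of Ltc4s and Lta4h (percent, linear axis), with sham in blue, IZ in orange, IZ replicate 1 as the open point and lines at the medians. The ratio runs from 1 to 4 in sham and from 21.5 to 282 in the IZ, where it rests on 1 to 13 Alox5 counts per library. The share ranges overlap between 14.5 and 22.2%.

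Ordered by mean CPM, the sham ventricle had Ptgds, Ptgis, Lta4h, Alox5ap, Ptgs1, Ltc4s, Alox5, Tbxas1, Ptgs2 and Ptges from high to low. The IZ had Ptgis, Alox5ap, Lta4h, Tbxas1, Ptgds, Ptgs1, Ltc4s, Ptgs2, Alox5 and Ptges. Among neighbours in the sham order, Alox5ap and Ptgs1, Ptgs1 and Ltc4s, Ltc4s and Alox5, and Ptgs2 and Ptges had means that differed by less than the SD of either gene. In the IZ this held for Ptgis and Alox5ap, Tbxas1 and Ptgds, Ltc4s and Ptgs2, and Alox5 and Ptges. Without IZ replicate 1, Ptgds at 15.3 ± 10.8 CPM (SD, n = 8) came just below Ptgs1 at 15.6 ± 4.93 CPM (SD, n = 8), and it differed from Tbxas1 at 38.8 ± 4.23 CPM (SD, n = 8) by more than the SD of either gene. The summed level of all 10 genes was 245 to 449.7 CPM in sham and 343 to 478 CPM in the IZ, so the sums overlapped while the genes behind them differed.

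In all, 6 pairs of genes that act on the same or successive steps were compared across the 9 IZ samples on log2 CPM. None passed after adjustment over the 6 pairs. Alox5ap and Lta4h had a Pearson's r of 0.68 (exact permutation p = 0.0387, adjusted 0.232) and a Spearman's rho of 0.78 (exact permutation p = 0.0172, adjusted 0.103), and r was 0.76 without the 2 libraries farthest from the median of Alox5ap. Alox5 and Alox5ap had r = -0.08 (exact permutation p = 0.792, adjusted 0.801; rho -0.15, exact permutation p = 0.708, adjusted 0.776), or -0.37 without 2 libraries. Ptgs2 and Ptges had r = 0.23 (exact permutation p = 0.545, adjusted 0.801; rho 0.37, exact permutation p = 0.336, adjusted 0.776), which was 0.74 without replicates 3 and 7. For the remaining pairs (Alox5ap with Ltc4s, Ptgs1 with Tbxas1 and Ptgs1 with Ptgis) r was 0.18, 0.31 and -0.1, with exact permutation p of 0.665, 0.443 and 0.801 and adjusted p of 0.801 for each. Their rho was 0.13, 0.12 and -0.18, with exact permutation p of 0.744, 0.776 and 0.644 and adjusted p of 0.776 for each. Leaving out 2 libraries gave r of 0.21, 0.43 and -0.13.

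Beyond the 10 genes, 68 other genes of the pathway were listed by role, of which 64 had a row and 39 were tested. Of these 15 rose, 12 fell and 12 did not pass, with a median log2 fold change of 0.25, so the share called was near the 69.5% called over all genes. Among genes that release arachidonic acid or return it to membranes, 6 of 12 tested rose and 4 fell, where 36.3% of all genes rose and 33.1% fell. The lists that follow are to be read against the same shares. Anxa1, whose protein annexin A1 is known as an inhibitor of phospholipase A2, rose from 27.5 ± 5.38 CPM (SD, n = 8) to 175 ± 42.8 CPM (SD, n = 9), a log2 fold change of 2.69 (SE 0.18, adjusted p = 2.25e-11, edgeR). Lpcat2, which reacylates lysophospholipids, rose by 3.58 on the log2 scale, from 1.4 to 17.7 CPM. It had 0 to 7 counts per sham library and 26 to 184 per IZ library, so it passed the filter mainly in the IZ. Pla2g5 and Pla2g12a, which encode secreted phospholipases, fell by 4.02 and 1.91 on the log2 scale, from 34 to 2.14 CPM and from 49.6 to 13.1 CPM. Pla2g5 had 33 to 93 counts per sham library and 0 to 16 per IZ library, so it passed the filter mainly in sham. In these 4 genes, which the naming rule took for their large changes, the IZ libraries did not overlap with sham, as for 16.4% of all genes above and 16.6% below sham. The rule left out other called genes of this list, among them phospholipase genes that rose. Pla2g4a rose by 2.01 on the log2 scale, from 2.75 to 11 CPM, and Pla2g15 by 1.92, from 7.79 to 29.2 CPM. Pla2g4a, with 1 to 11 counts per sham library and 6 to 111 per IZ library, also passed the filter mainly in the IZ. Acsl4 and Mboat7 rose by 0.88 and 0.52, and Plaat3 and Mgll fell by 1.7 and 1.36.

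Among 6 other prostanoid synthases tested, 1 rose and 3 fell. The 1 that rose was Hpgds, the haematopoietic prostaglandin D synthase, which makes the same product as Ptgds. It went from 2.59 ± 1.99 CPM (SD, n = 8) to 26.2 ± 4.23 CPM (SD, n = 9), a log2 fold change of 3.42 (SE 0.25, adjusted p = 4.16e-11, edgeR), while Ptgds fell. Hpgds had 2 to 9 counts per sham library and 34 to 203 per IZ library, so it passed the filter mainly in the IZ. In a description chosen after these values were seen, Hpgds made up 0.342 to 2.48% of the summed counts of the 2 genes in sham and 12.2 to 81% in the IZ, with medians of 0.629 and 63.7%. It exceeded Ptgds in 0 of 8 sham libraries and in 7 of 9 IZ samples, the exceptions being replicates 1 and 5 with 12.2 and 41.9%. Prxl2b, linked to prostaglandin F synthesis, fell by 1.78 on the log2 scale, from 149.6 to 43.6 CPM. Ptges2, a second membrane-associated prostaglandin E synthase, fell by 1.7, from 57.2 to 17.7 CPM, and even so stood above Ptges at 1.69 CPM.

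Of 4 tested genes of other lipoxygenases and leukotriene processing, Dpep2 rose by 3.66 on the log2 scale, from 1.52 to 19 CPM, and Mgst3 and Dpep1 fell. Dpep2 had 0 to 5 counts per sham library and 19 to 163 per IZ library, so it passed the filter mainly in the IZ. Dpep2 and Dpep1 encode dipeptidases that convert LTD4 to LTE4. Mgst3 encodes a glutathione transferase that can also make LTC4, and it fell by 2.85, from 265 to 36.8 CPM, or, without IZ replicate 1, to 24.9 CPM at a log2 fold change of -3.46. Dpep1 had a log2 fold change of -0.97, which turned to 0.08 with total counts in place of TMM.

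Receptors of these lipids had low counts, and 4 passed the filter. Tbxa2r, Ptger4 and Cysltr1 had 0 to 13, 1 to 15 and 1 to 8 counts per sham library. In the IZ they had 8 to 47, 12 to 131 and 7 to 90, and passed the filter mainly there. A rise was therefore more likely from the start among the receptors tested. Tbxa2r, the thromboxane receptor, had 2.09 ± 1.98 CPM in sham (SD, n = 8) against 6.92 ± 2.4 CPM in the IZ (SD, n = 9). Its log2 fold change was 1.62 (SE 0.38, adjusted p = 0.000575, edgeR), or 1.45 without IZ replicate 1 (adjusted p = 0.000786, edgeR). Its covariation with Tbxas1 was not tested. Ptger4, a prostaglandin E2 receptor, rose by 1.29 on the log2 scale (adjusted p = 0.000685, edgeR), from 4.65 to 10.7 CPM. Cysltr1, a receptor of the cysteinyl leukotrienes, rose by 2.38 (adjusted p = 5.5e-07, edgeR), from 1.93 to 10.2 CPM, while Ltc4s did not pass the test. Cmklr1, which binds chemerin and resolvin E1, rose by 1.13, from 14.6 to 31.3 CPM. A further 6 receptors reached 10 counts in at least 1 library and did not pass the filter. Ptger2 had 0 to 5 counts per sham library and 1 to 24 per IZ library, Ptger3 0 to 1 and 0 to 21, Ptgfr 1 to 9 and 2 to 14, and Ptgir, the prostacyclin receptor, 1 to 9 and 5 to 28. Ltb4r1, the LTB4 receptor, had 0 to 4 and 1 to 40, and Fpr2 0 to 1 and 1 to 20. In the fit without the filter, Fpr2 rose by 3.77 on the log2 scale (SE 0.9, adjusted p = 0.000587, edgeR), Ptger3 by 2.71 (SE 0.99, adjusted p = 0.0264), Ptger2 by 2.7 (SE 0.6, adjusted p = 0.000269) and Ltb4r1 by 1.74 (SE 0.57, adjusted p = 0.0123). The value of Ptger3 rests largely on 1 library, which held 21 of its 29 IZ counts. That library had 2.88 CPM, the second highest IZ library 0.535 CPM and the highest sham library 0.731 CPM. Ptgfr at 0.34 (SE 0.44, adjusted p = 0.542) and Ptgir at 0.32 (SE 0.37, adjusted p = 0.486) did not pass. The fitted values of Fpr2, Ptger2 and Ptger3 depend on the prior count, since most of their sham counts were at or near 0.

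Of 9 tested genes of transport and breakdown, 3 rose, 1 fell and 5 did not pass, a lower share called than the 69.5% of all genes. Cyp4f18, which inactivates LTB4, rose by 4.25 on the log2 scale, from 1 to 22.9 CPM, and Ptgr1, which reduces oxidised prostaglandins and oxidises LTB4, rose by 2.73, from 6.04 to 38.9 CPM. Cyp4f18 had 0 to 8 counts per sham library and 32 to 184 per IZ library, so it passed the filter mainly in the IZ. Ptgr2, another prostaglandin reductase, fell by 2.34, from 188 to 37 CPM. Of 4 tested genes of the epoxygenase branch, Ephx2, the soluble epoxide hydrolase, fell by 2.8 and Cyp2u1 by 2.21, from 278 to 40 CPM and from 26.6 to 5.84 CPM, and the other 2 did not pass. IZ replicate 1 had the highest summed level of the epoxygenase list among the IZ samples, 165 CPM against 65.2 to 113 CPM.

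**Figure D4:**
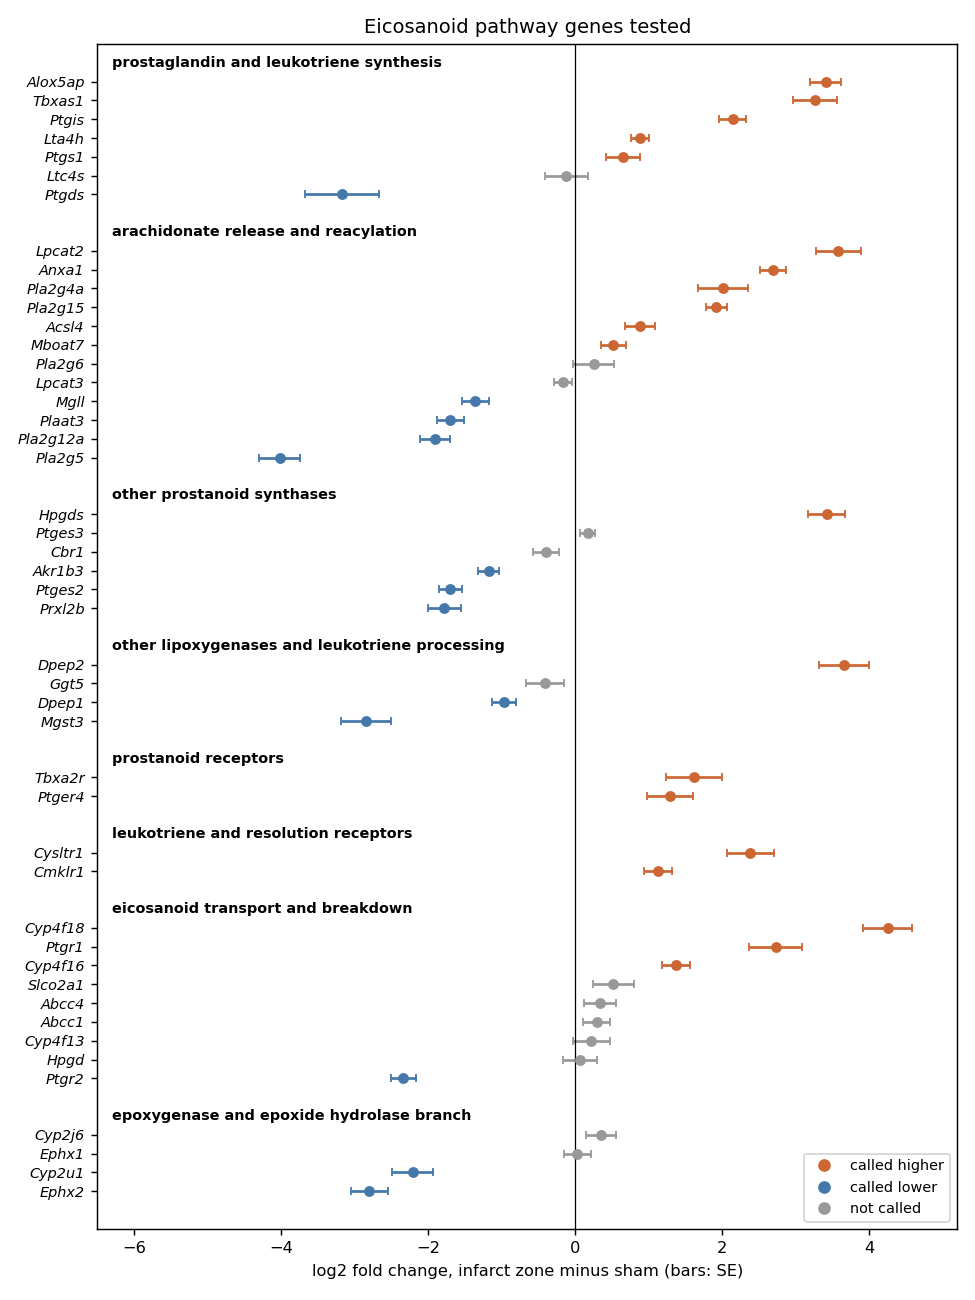
Log2 fold change of IZ against sham (horizontal axis, points, with bars of 1 SE) for the 7 tested genes of prostaglandin and leukotriene synthesis and 39 other tested genes, grouped by role. Orange marks genes called higher, blue lower and grey not called at an adjusted p of 0.05. All 4 receptors tested lie to the right of 0, but Tbxa2r, Ptger4 and Cysltr1 passed the filter mainly through the IZ libraries. Receptors that are not higher there were thus less likely to be shown. Tbxas1, Lpcat2, Pla2g4a, Hpgds, Dpep2 and Cyp4f18 also passed the filter mainly through the IZ libraries, and Pla2g5 mainly through sham. The other lists with more than 1 call hold genes on both sides, except the epoxygenase list, whose calls were both lower.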

How the data were processed

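Transcripts of 8 sham left ventricles and 9 infarct zones were measured by massive analysis of cDNA ends. Per the labels and methods, the authors prepared 3′ end libraries with molecular identifiers for removal of PCR duplicates, trimmed reads with Cutadapt, mapped them to mm10 and counted them per gene with HTSeq. The submitters' processing notes also name bcl2fastq, Bowtie2 and DESeq2. The deposited values are raw counts per gene. The annotation release was not given in the sources used here. Reads of near-identical copies could not be traced, and none was found among the last 500 bases of the 10 genes by BLAST 2.17.0 (at least 100 bases at 95% identity). Of 31647 features, 35 were merged genes (0.152% of the counts), which were kept in library sizes and were given no name.

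Genes were tested with edgeR 4.0.16 (R 4.3.3), with filterByExpr at its default minimum of 10 counts, TMM (trimmed mean of M values) scaling (factors 0.613 to 1.54), the two-sided quasi-likelihood F-test without covariates and Benjamini-Hochberg adjustment over all genes, at a threshold of 0.05. Standard errors were derived from the F statistic. Log2 CPM used a prior count of 1. Shares were tested by exact permutation over 24310 splits and correlations over 362880 pairings. Precision is limited by total counts of 1237675 to 4738307. Counting error alone was not separated from the spread between mice. On simulated data with 200 of 11605 genes changed by 1 on the log2 scale, 85.9% were called and 3.53% of the calls were unchanged genes. In the measured data 69.5% of 12301 genes were called, and whether these rates hold at such a share was not tested.

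Positions come from GENCODE vM21 (GRCm38) and promoter windows from RefSeq. Of the listed pathway genes, 4 had no row and were not analysed here. The naming rule took all 10 genes, every receptor with at least 10 counts in a library, and, in each other list the 2 called genes that rose most and the 2 that fell most. Alternatives tried were scaling by total counts, by the upper quartile or by DESeq2 size factors, the DESeq2 1.42.0 Wald test, no filter, a minimum mean of 50 counts, a replicate block, the omission of each library, pooled counts, medians and a prior count of 5. The genes and lists were chosen with earlier results of these data known. Python 3.11.15, NumPy 2.4.6, pandas 2.3.3, SciPy 1.17.1 and Matplotlib 3.10.9 were used.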

Additional observations from a re-analysis of the deposited data

Results flagged for a closer look

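Values were marked when the highest or lowest library of a group lay farther from the others than Dixon's 95% critical value allows. This marked 9 of 32 groups of values, and chance marks about 1 in 20. The shares of 1 library depend on each other and on the levels, so the marks are not independent. Infarct zone replicate 1 was high for Ptgds at 145 CPM and low for Tbxas1 at 8.25 CPM, and accordingly had a Ptgds share of 61.6% and a Ptgis share of 34.6% among the PGH2-using synthases. This library also had the highest marker sums of the infarct zones for cardiomyocytes (17867 CPM), mural cells (399 CPM) and endothelial cells (538 CPM). Sham replicate 2 was high for Ptges at 5.39 CPM, which rests on 8 counts, and for the shares of Ptges at 2.93% and Ptgis at 22.3%, and low for that of Ptgds at 72.2%. Infarct zone replicate 8 was high for Alox5 at 4.08 CPM.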

How the results depend on the processing

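With total counts in place of TMM, the log2 fold change of the median gene moved by 1.09. Calls were then 9203 higher and 1524 lower over all genes and 27 higher among the other pathway genes. Ltc4s turned to 0.99 (adjusted p = 0.0035, edgeR), below the shifted median, Ptges passed at 1.60, Alox5 no longer passed at -0.67, and Dpep1 turned to 0.08. Under the same scaling, r was 0.07 for Alox5 and Alox5ap, 0.28 for Ptgs1 and Ptgis, and 0.88 for Alox5ap and Lta4h, the last with an adjusted exact permutation p of 0.00559. Ltc4s was at 0.00 with upper quartile scaling, which shifted the median by 0.11. A minimum mean of 50 counts, which tested 6734 genes, left 2747 higher and 2492 lower calls and 7 higher among the other pathway genes. With the DESeq2 Wald test or without the filter, 2 of the 10 genes were called lower in place of 1, since Alox5 was then tested. Among the role lists, counts that moved by over 1.5 times were as follows. Without the filter, 4 prostanoid receptors and 5 leukotriene and resolution receptors were called higher in place of 2 and 2, 2 lipoxygenase and processing genes higher in place of 1, and 7 release genes lower in place of 4 (5 and 7 also with DESeq2). With total counts, 8 transport and breakdown genes were higher in place of 3, 3 other synthases in place of 1 (2 with upper quartile scaling, which also gave 5 transport genes), 2 processing genes in place of 1 and 2 epoxygenase genes in place of 0, and 1 processing gene was lower in place of 2. A minimum mean of 50 counts left 0 prostanoid receptors, 1 leukotriene or resolution receptor, 1 transport gene and 0 processing genes higher, and 1 epoxygenase gene lower. Without IZ replicate 6, 1 epoxygenase gene was higher. For Ptgs2 and Ptges, r was 0.74 without the 2 libraries farthest from the median. When each library was left out in turn, the Ptgs1 share difference ran from -12.5 to -8.47 percentage points and passed in 4 of 17 cases, and Ltc4s ran from -0.22 to 0.01, with the sign turning without IZ replicate 6. The causes were not tested.

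Replicate numbers in the labels did not pair the mice. Deviations of same-numbered libraries correlated by -0.22 to 0.13, and only replicate 8 matched best with its own number. With the replicate number as a block, 7883 genes were called (4085 higher and 3798 lower), Ptgs1 had a log2 fold change of 0.61 and Ptgds of -3.86, and no call among the 10 genes changed.

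Ptgs2, Ptges and Alox5 rest on at most 76 counts per library, which limits what depth can show for them. Ptgs1 and Ltc4s were not tested with a minimum mean of 50 counts, where 4 of the 10 genes were called higher and 1 lower. Ptgis, Ptgds, Tbxas1, Alox5ap and Lta4h kept their direction and call under every setting run for them.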
